A study of Rattus norvegicus with 8 samples.

Results

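Genes of mitosis and cell division were examined in cells of the rat nucleus pulposus, the soft centre of the intervertebral disc. The genes were those of the deposited expression table with a gene ontology (GO) term containing cell division, mitotic, spindle or kinetochore. Of 4226 genes in the table, 235 carried such a term. A DNA replication or single-stranded DNA binding term removed 25 of them and a list of excluded names removed 4, which left 206 genes, called members below. Of these, 203 were protein-coding. All cells had first undergone knockdown of SOD1, the copper-zinc superoxide dismutase of the cytosol. The SOD1-WT group (4 libraries) was then transfected with wild-type SOD1, and the SOD1-K123R group (4 libraries) with a form that carries arginine in place of a lysine. Lactate was present at 10 mM for 7 days in both. The comparison asks what the substitution does to expression under lactate. The sources used here do not give the strain and age of the animals or the means of knockdown and transfection. Nor do the labels state that replicates came from separate cultures, so that p-values measure the spread between these libraries, which may be technical. In the table the columns of SOD1-WT are named Ctrl and those of SOD1-K123R are named L, a letter that is not explained. Should L mean lactate and Ctrl its absence, every difference below could be an effect of lactate, which cannot then be told apart from the substitution. The level of Sod1 was not analysed here.

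Mitosis separates the copied chromosomes into a pair of daughter cells. Cyclin B bound to the kinase CDK1 drives cells into mitosis. Kinetochores, protein assemblies built on the centromere, then hold each chromosome to the microtubules of the spindle, and the spindle assembly checkpoint holds back anaphase until all of them are attached. The anaphase-promoting complex, a ubiquitin ligase, then marks cyclin B and securin for destruction, and cytokinesis divides the cell. Many genes of this machinery are transcribed together late in the cell cycle, through promoter elements bound by the MuvB complex, B-MYB, FOXM1 and NF-Y. Cells of the adult nucleus pulposus are known to divide rarely in the disc and to resume division in culture.

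The values were TPM, an abundance unit that accounts for transcript length, so that levels of different genes can be compared. Testing required a mean over all 8 libraries of 1 TPM or more, which 185 members met and 21 did not. Differences below are SOD1-K123R minus SOD1-WT in log2(TPM + 1), and come with the standard error (SE) of limma. Adding 1 makes differences of weakly expressed genes appear smaller than they are. TPM are given per library in the order of replicates 1 to 4, or as mean ± SD with n = 4 in each group. A gene rose or fell where limma gave a Benjamini-Hochberg adjusted p under 0.05 over all 2890 genes tested. The table holds part of the transcriptome (18.8% to 19.9% of the TPM total in SOD1-WT and 23.5% to 24.3% in SOD1-K123R), the rule that chose its rows is not known, and 95.7% of the genes tested passed. A passing member is therefore no exception in this table. Correlations across genes were 0.981 to 0.994 between libraries of a group and 0.788 to 0.818 between groups. Depth is not recoverable from TPM.

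Replicate 3 of SOD1-WT stood apart in these genes. Of the 68 tested members that are on a textbook list of core mitotic genes, 62 had their highest SOD1-WT value in that library (91.2%). The same was true of 50 of the 117 other members (42.7%) and of 1113 of all 2890 genes (38.5%). In SOD1-K123R, 39 of the 68 had their lowest value in replicate 3. The median level of the 68 genes was 13.2, 12.8, 18.4 and 12.9 TPM in the SOD1-WT libraries and 7.75, 7.65, 5.85 and 6.71 TPM in the SOD1-K123R libraries. The groups did not overlap in this median with or without replicate 3. Values without that library are given below where it matters.

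In SOD1-K123R cells 107 members fell and 65 rose, and 13 did not pass. The share that fell, 57.8%, stood against 51.1% of all genes tested, and the share that rose, 35.1%, against 44.6%. Passing falls of at least 2-fold in TPM + 1, the fitted scale, were found in 69 of the 185 tested members. Beside them stood 1036 of all 2890 genes tested (35.8%). Rises of at least 2-fold on that scale were found in 40 of the 185, beside 751 of the 2890 (26%). Weakly expressed genes can change more than 2-fold in TPM and not be counted there. The groups did not overlap in 165 of the 185 members, against 91.4% of all genes. The median difference of the members was -0.67, beside -0.49 over all genes tested, and was -0.54 without SOD1-WT replicate 3. The filter on low values moved the background more than the members: with no filter the medians were -0.53 for members and -0.14 for all genes, and at a mean of at least 5 TPM they were -0.58 and 0.27. Scaling the libraries by median-of-ratios moved the median of all genes to -0.14 and that of the members to -0.25, with 72 rising and 89 falling. Its factors came from this partial table, in which 95.7% of the genes tested passed. Scaling to equal summed TPM, used below, takes the sum over the same table. As that sum was larger in SOD1-K123R, it lowers all SOD1-K123R values against SOD1-WT. Which scale is nearer to the true one was not tested.

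The direction differed with the kind of GO term. Of 45 members with a kinetochore term, all tested, 35 fell (77.8%) and 6 rose (13.3%), beside 51.1% and 44.6% of all genes tested. Their median difference was -1.11, and 28 fell and 6 rose after median-of-ratios scaling. The shares that fell in the classes below, 56.6%, 52.9% and 45.3%, lay nearer to that of all genes. Of 53 tested members with a spindle term but none for the kinetochore, 30 fell and 18 rose (median -0.59). Among 34 whose matching terms all concern regulation, 18 fell and 15 rose (median -0.52). The remaining 53, matched by other mitotic or division terms, held 24 that fell and 26 that rose, and their median of -0.00 became 0.44 with median-of-ratios scaling. In bulk libraries, fewer dividing cells and less RNA of these genes per cell cannot be told apart.

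**Figure D1:**
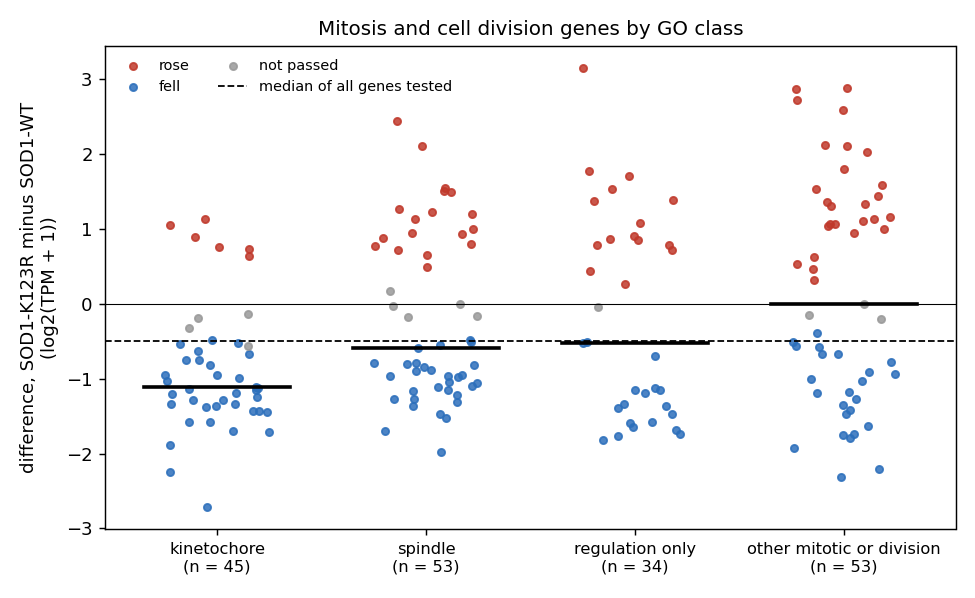
Each point is a tested member, placed by GO class (x axis, with the number of genes) and by its fitted difference, SOD1-K123R minus SOD1-WT in log2(TPM + 1) (y axis). Thick lines are class medians and the dashed line is the median of all genes tested, -0.49. The kinetochore class lies mostly below that line, with 6 genes above 0.

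A second count used the textbook list, which names 255 genes of the mitotic machinery and its regulators by role, without regard to GO. The table held 98 of them and 96 were tested. Of the 96, 68 are members already counted above and 28 are not, so the 2 counts are not independent. Of the 96, 74 fell (77.1%), 9 rose (9.38%) and 13 did not pass, beside 51.1% that fell and 44.6% that rose of all genes tested. Core genes passed less often than all genes tested, 86.5% against 95.7%. After median-of-ratios scaling 57 fell and 15 rose. The 117 tested members outside the list were mixed, with 55 that fell and 60 that rose (median difference 0.31). The GO terms thus gathered the machinery itself together with genes better known for other roles.

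Of 28 tested genes in the centromere and kinetochore role of the core list, 25 fell and 1 rose. The share that fell was 89.3%, beside 51.1% of all genes tested. After median-of-ratios scaling 20 fell and 1 rose. All of the 14 members with a Cenp name were tested, and 13 fell and none rose. Cenpa, the histone H3 variant that marks the centromere and on which the kinetochore is built, had 19.0, 16.2, 23.5 and 18.6 TPM in the SOD1-WT libraries and 1.36, 2.70, 2.33 and 2.00 TPM in the SOD1-K123R libraries. Every SOD1-K123R value lay far below every SOD1-WT value. The mean TPM was 9.21-fold lower, and the difference of -2.72 (SE 0.16, limma adjusted p = 8.81e-09) was the largest fall of all members. Genes that load or place CENP-A are not members but are on the core list, and they fell too. Hjurp, its chaperone, went from 9.37 ± 1.5 to 4.92 ± 0.739 TPM. Oip5, a subunit of the Mis18 complex that prepares the centromere for loading, went from 5.39 ± 0.658 to 1.03 ± 0.236 TPM, and its partner Mis18a from 8.22 ± 2.42 to 3.62 ± 0.754 TPM.

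The Ndc80 complex is the main grip of the kinetochore on microtubules, and all of its 4 subunits were measured. Spc25 had 17.7, 20.3, 29.9 and 17.4 TPM in SOD1-WT and 3.57, 4.82, 1.64 and 5.24 TPM in SOD1-K123R (-2.25, SE 0.25, limma adjusted p = 2.26e-06). Ndc80 itself had 6.08, 8.75, 13.1 and 7.35 against 2.15, 2.05, 1.58 and 1.83 TPM (-1.71, SE 0.19). Nuf2, its partner in the microtubule-binding dimer, had 21.4, 30.7, 42.9 and 28.2 against 11.8, 12.1, 9.19 and 12.1 TPM (-1.34, SE 0.17). The groups did not overlap in any of these 3 members. Spc24, which pairs with Spc25 and is not a member, fell from 63.6 ± 11.1 to 33.3 ± 4.59 TPM. The 4 subunits thus fell by unequal amounts, from 1.91-fold for Spc24 to 5.58-fold for Spc25.

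Proteins that steady the same attachment followed. Ska2 (-1.88) and Ska1 (-1.25), subunits of the SKA complex that helps Ndc80 track microtubule ends, both fell without overlap of the groups. Knstrn, which recruits regulators to the attached kinetochore, fell from 41.9 ± 4.69 to 16.1 ± 2.53 TPM. Kntc1 (-1.13) and Zwilch (-0.51), subunits of the RZZ complex that recruits dynein, and Spdl1 (-0.82), an adaptor for dynein, also fell, but Zwilch no longer passed after median-of-ratios scaling (-0.06). Cenpe (-1.15), a kinesin that carries chromosomes to the spindle equator, and Cenpf (-1.28), a large protein of the outer kinetochore, fell from 7.75 ± 2.93 to 2.86 ± 0.802 and from 7.09 ± 3.24 to 2.21 ± 0.790 TPM.

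The inner kinetochore, the constitutive centromere-associated network, bridges the centromere and these outer parts. Among its measured subunits Cenpw fell most (-1.71, SE 0.16), and its partner in the histone-fold complex, Cenpt, less (-0.99, SE 0.12). Cenph (-1.37), Cenpi (-1.20) and Cenpu (-1.19) lay between these, as did Cenpp (-1.29), which is not a member. Cenpm (-0.75), Cenpo (-0.67), Cenpk (-0.52) and Cenpn (-0.48) passed as deposited, but none of these 4 passed after median-of-ratios scaling, with differences of -0.29, -0.25, -0.10 and -0.07. Cenpk also failed to pass without SOD1-WT replicate 3 (limma adjusted p = 0.0578), without SOD1-K123R replicate 3 (0.0501) and without SOD1-K123R replicate 4 (0.0578). Cenpq had 5.91, 8.00, 12.0 and 6.52 against 5.99, 7.48, 7.79 and 5.93 TPM and did not pass (-0.19, SE 0.18). Knl1, the scaffold that binds checkpoint proteins, overlapped in the same way, at 3.07 ± 1.22 and 2.71 ± 1.16 TPM.

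The kinetochore class held 6 genes that rose. Zwint, which links the scaffold Knl1 to the RZZ complex, had 99.7, 105, 108 and 99.6 TPM in SOD1-WT and 164, 182, 154 and 144 TPM in SOD1-K123R (0.64, SE 0.09). It was already the most abundant of the 23 members in the kinetochore role of the core list. Bod1, an inhibitor of the phosphatase PP2A that acts in chromosome orientation, rose from 19.7 ± 0.972 to 44.5 ± 2.77 TPM. Ndel1, a dynein regulator, rose from 131 ± 7.81 to 245 ± 26.6 TPM, while its close relative Nde1 fell from 38 ± 3.70 to 17 ± 1.45 TPM. The others that rose were Bbln (0.73), the histone acetyltransferase gene Kat8 (0.75) and Ss18l1 (1.06), a chromatin remodelling subunit.

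**Figure D2:**
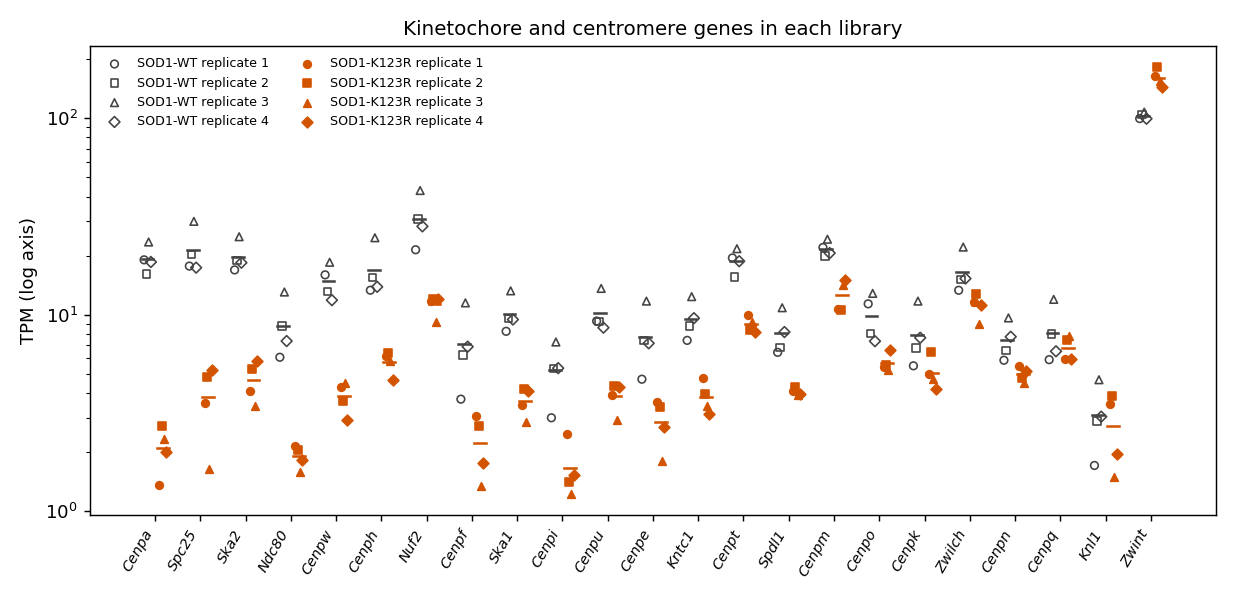
TPM (y axis, log scale) of the 23 members with a kinetochore or centromere role on the core list (x axis, ordered by the difference), with 1 point for each library and a bar at each group's mean. The groups lie apart from Cenpa to Spdl1, they overlap in Cenpk, Cenpq and Knl1, and Zwint alone is higher in SOD1-K123R, at 161 against 103 TPM.

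Promoters of the members were read from RefSeq windows of 300 bases on the GRCr8 build, 250 before and 50 after the start of the gene, which matched 155 of the 206 members to a single entry. The sequences shown are the 150 bases before the start, 5′ to 3′ on the strand of the gene. Capitals mark TTTGAA or TTCGAA, the cell cycle genes homology region to which MuvB complexes bind, and CCAAT, to which NF-Y binds, on either strand. The first 5 belong to members that fell, the next 3 to cytokinesis genes that did not pass, and the last to Ccng2, which rose.
Cenpa: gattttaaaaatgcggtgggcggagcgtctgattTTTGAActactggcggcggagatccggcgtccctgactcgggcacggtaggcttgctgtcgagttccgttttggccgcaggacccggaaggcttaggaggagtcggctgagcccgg
Spc25: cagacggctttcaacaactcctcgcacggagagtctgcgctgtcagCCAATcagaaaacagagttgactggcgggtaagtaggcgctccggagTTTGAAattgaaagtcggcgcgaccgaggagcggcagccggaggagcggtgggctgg
Ccnb2: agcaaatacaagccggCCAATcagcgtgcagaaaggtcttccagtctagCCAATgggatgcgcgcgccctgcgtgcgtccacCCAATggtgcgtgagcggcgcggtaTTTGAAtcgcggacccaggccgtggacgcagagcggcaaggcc
Cdc20: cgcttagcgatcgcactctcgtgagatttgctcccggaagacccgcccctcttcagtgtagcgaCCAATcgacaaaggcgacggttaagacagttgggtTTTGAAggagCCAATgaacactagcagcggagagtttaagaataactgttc
Plk1: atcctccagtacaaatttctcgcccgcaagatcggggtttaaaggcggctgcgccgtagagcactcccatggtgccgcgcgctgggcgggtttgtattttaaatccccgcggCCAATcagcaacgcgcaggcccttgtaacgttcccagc
Prc1: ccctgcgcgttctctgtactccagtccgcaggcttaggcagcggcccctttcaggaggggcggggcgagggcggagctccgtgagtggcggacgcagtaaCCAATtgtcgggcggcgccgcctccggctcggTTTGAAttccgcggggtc
Kif23: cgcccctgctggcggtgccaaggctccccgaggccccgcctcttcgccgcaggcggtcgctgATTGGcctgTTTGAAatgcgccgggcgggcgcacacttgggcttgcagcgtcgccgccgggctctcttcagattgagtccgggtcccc
Anln: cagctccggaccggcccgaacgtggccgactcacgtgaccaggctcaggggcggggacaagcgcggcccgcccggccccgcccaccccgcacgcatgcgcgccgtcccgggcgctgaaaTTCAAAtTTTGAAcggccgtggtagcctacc
Ccng2: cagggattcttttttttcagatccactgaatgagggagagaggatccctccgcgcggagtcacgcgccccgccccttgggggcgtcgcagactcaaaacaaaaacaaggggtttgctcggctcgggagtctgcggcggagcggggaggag
These stretches lie at chr6:31431553-31431702, minus strand (Cenpa), chr3:74396719-74396868, minus strand (Spc25), chr8:79981659-79981808, minus strand (Ccnb2), chr5:137255800-137255949, minus strand (Cdc20) and chr1:186147508-186147657, plus strand (Plk1). Those of the cytokinesis genes lie at chr1:143659331-143659480, plus strand (Prc1), chr8:71320585-71320734, minus strand (Kif23) and chr8:29197514-29197663, minus strand (Anln), and that of Ccng2 lies at chr14:15097191-15097340, minus strand. Cenpa, Spc25, Ccnb2 and Cdc20 all show TTTGAA, and Ccnb2 has 3 copies of CCAAT upstream of it. The stretch of Plk1 shows CCAAT alone, and its TTTGAA lies elsewhere in the window. Prc1 and Kif23 have both elements as well, Kif23 with CCAAT on the opposite strand (ATTGG), and Anln has TTTGAA on both strands next to each other. In the window of Ccng2 neither element was found.

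The homology region was found in 19.7% of all 33469 promoter windows of the table and in 39.4% of the members' windows (61 of 155). The share of all windows counts every entry, also where a gene has several, whereas members were counted only with a single entry. It was present in 44 of 85 members that fell (51.8%), in 5 of 48 that rose (10.4%) and in 10 of 12 that did not pass (83.3%). CCAAT was present in 37.5% of all windows, 56.5% of members that fell, 33.3% of those that rose and 66.7% of those that did not pass. Both elements together were found in 7.95% of all windows, 32.9% of members that fell and 4.17% of those that rose. Membership of the core list separated the windows as strongly as direction did: 40 of 57 core members had the homology region (70.2%) against 21 of 98 other members (21.4%). The 5 members that rose with the homology region in their window were Ankrd53, Dcun1d3, Kat8, Lsm11 and Rhou. The E2F sequences TTTCCCGC, TTTGGCGC, TTTCGCGC and TTTGCCGC, searched on both strands and as exact letters, were found in 2.14% of all windows and 4.52% of the members' (7 of 155). A match describes letters in the window and not a bound site, and the shares carry no test.

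**Figure D3:**
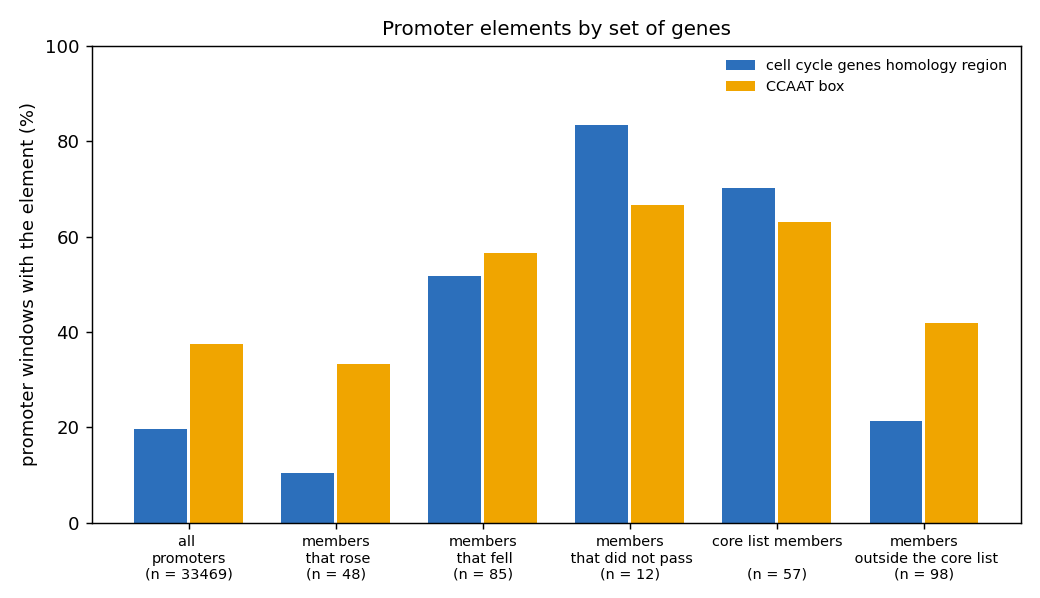
Share of promoter windows (y axis, percent) that hold the cell cycle genes homology region (TTTGAA or TTCGAA) or CCAAT on either strand, for all RefSeq windows and for sets of members (x axis, with the number of windows). The homology region is at 10.4% in members that rose, 51.8% in those that fell and 83.3% in those that did not pass, beside 19.7% of all windows.

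Cyclins and kinases that drive entry into mitosis fell. Ccnb1, which encodes cyclin B1, had 59.0, 55.3, 89.6 and 61.8 TPM in SOD1-WT and 21.0, 21.3, 19.6 and 23.0 TPM in SOD1-K123R (-1.58, SE 0.14, limma adjusted p = 2.27e-07). Ccnb2 had 28.8, 29.6, 32.5 and 29.3 against 11.3, 8.36, 13.2 and 8.58 TPM (-1.47, SE 0.13). Both B-type cyclins fell by similar amounts, 3.13-fold and 2.90-fold in mean TPM, and the groups were far apart. A pseudogene copy, Ccnb2-ps2, is itself a member, and reads could be split between it and Ccnb2. Ccna2, the A-type cyclin of S phase and early mitosis, had 27.4, 31.8, 50.7 and 32.3 against 12.4, 14.6, 10.7 and 10.2 TPM. Plk1, a kinase of mitotic entry, spindle and cytokinesis, had 48.4, 45.9, 52.1 and 45.4 against 17.3, 16.7, 13.8 and 20.9 TPM (-1.44, SE 0.12). SOD1-WT replicate 3 was the highest library in each of these 4 genes, in Ccnb2 and Plk1 by little. Cdc25c, the phosphatase that activates CDK1, fell from 12.8 ± 1.52 to 5.73 ± 0.793 TPM. Ccnf, a cyclin that acts in a ubiquitin ligase, fell from 12.8 ± 1.25 to 8.30 ± 1.70 TPM but did not pass after median-of-ratios scaling.

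Plk2 and Plk3, relatives of Plk1 known as stress-responsive and not as drivers of mitosis, moved the opposite way. Plk2 rose from 20.0 ± 1.41 to 50.1 ± 8.33 TPM and Plk3 from 37.3 ± 5.38 to 75.2 ± 4.56 TPM. The groups overlapped in neither gene.

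The chromosomal passenger complex corrects faulty attachments. Birc5, which encodes its subunit survivin, had 35.1, 33.8, 41.8 and 29.5 against 13.6, 12.0, 13.5 and 12.7 TPM (-1.36, SE 0.11). Aurkb, its kinase, had 8.22, 7.22, 10.8 and 8.91 against 6.01, 5.20, 4.34 and 5.62 TPM (-0.63, SE 0.14). The fall of Aurkb was the smaller and did not pass after median-of-ratios scaling (-0.21, limma adjusted p = 0.114). Among checkpoint genes, Mad1l1 fell from 12.3 ± 1.01 to 3.50 ± 0.691 TPM and Trip13, which recycles the checkpoint protein MAD2, from 8.33 ± 2.73 to 4.20 ± 0.758 TPM. The kinase genes Bub1 and Ttk, which start the checkpoint signal, did not pass. Bub1 had 9.01, 11.6, 18.2 and 10.8 against 10.5, 10.9, 8.96 and 7.48 TPM (-0.33, SE 0.19), and Ttk had 5.28, 9.13, 18.2 and 9.33 against 8.14, 6.66, 4.98 and 5.35 TPM (-0.56, SE 0.27). SOD1-WT replicate 1 lay within the SOD1-K123R range in both genes, as did replicate 4 in Bub1. Without SOD1-WT replicate 3, which was high in both, the differences shrank to -0.14 for Bub1 (limma adjusted p = 0.362) and -0.28 for Ttk (limma adjusted p = 0.198), and after median-of-ratios scaling that of Bub1 was 0.12. Without SOD1-WT replicate 1 both passed as lower (Bub1 -0.45, limma adjusted p = 0.0266; Ttk -0.81, limma adjusted p = 0.00316). Ttk also passed without SOD1-K123R replicate 1 (limma adjusted p = 0.0431). Under equal summed TPM both passed as lower, Bub1 at -0.61 (limma adjusted p = 0.00447) and Ttk at -0.84 (limma adjusted p = 0.00671).

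Of 21 genes that the core list names in the anaphase-promoting complex role, 4 were in the table and tested. All 4 fell, beside 51.1% of all genes tested, and 3 of them did after median-of-ratios scaling. They encode an activator, an inhibitor, a target and a partner enzyme, and no core subunit of the complex was among them. Cdc20, the activator of the anaphase-promoting complex, had 79.9, 70.4, 87.7 and 74.3 against 39.6, 37.5, 39.2 and 41.4 TPM (-0.96, SE 0.09). Fbxo5, an inhibitor of that complex, fell from 12.7 ± 2.37 to 5.56 ± 0.939 TPM, so activator and inhibitor went the same way. Pttg1, which encodes securin, fell from 36.9 ± 3.88 to 24.6 ± 2.54 TPM and did not pass after median-of-ratios scaling. Ube2c, the ubiquitin-conjugating enzyme of the complex and not a member, fell from 96.8 ± 10.4 to 47.4 ± 5.34 TPM. Condensin, which compacts mitotic chromosomes, was uneven. Ncaph fell 4.62-fold, from 16 ± 1.83 to 3.47 ± 0.358 TPM, and Ncapd2 from 16.3 ± 1.03 to 9.12 ± 0.511 TPM. Ncapg had 4.26, 5.70, 12.7 and 5.37 against 6.98, 7.70, 4.05 and 3.96 TPM and did not pass (-0.21, SE 0.28). Its highest value was in SOD1-WT replicate 3, without which the difference was 0.09. Smc2, a core subunit of condensin outside the members, passed as deposited (-0.62, limma adjusted p = 0.0269) and did not pass without SOD1-WT replicate 3, SOD1-K123R replicate 3 or SOD1-K123R replicate 4 (adjusted p from 0.0642 to 0.0989).

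The balance of spindle genes depended on the scaling. Of 15 members in the list of spindle motors and microtubule proteins, 8 fell, 2 rose and 5 did not pass. The share that fell, 53.3%, was near the 51.1% of all genes tested. With quantile normalization 8 fell and 2 rose as well, and after median-of-ratios scaling 7 fell and 7 rose. Kif20a, a kinesin of the central spindle, fell from 54.2 ± 7.08 to 15.9 ± 2.18 TPM. Stmn1, which encodes the microtubule destabiliser stathmin, fell from 366 ± 29.9 to 127 ± 10.9 TPM. Tacc3, which steadies the fibres that hold kinetochores, fell from 49.5 ± 6.29 to 19.8 ± 2.35 TPM, whereas its relative Tacc2 rose from 6.03 ± 0.765 to 11.9 ± 1.17 TPM. Kif14 (-0.97) and Kif4a (-0.82), motors of the midzone and of chromosome arms, fell too. Nusap1, a microtubule bundler, fell from 23.0 ± 7.01 to 14.6 ± 2.06 TPM but not after median-of-ratios scaling. Ranbp1, a cofactor of the GTPase RAN, which guides spindle assembly, had 264, 274, 312 and 281 against 75.8, 71.2, 70.0 and 67.7 TPM. This fall of 3.97-fold had the smallest spread among the largest falls (-1.97, SE 0.08).

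The augmin complex, which nucleates branching microtubules within the spindle, did not move as a unit. Its subunit genes Haus1 and Haus4 fell, from 11.6 ± 2.37 to 4.62 ± 0.677 TPM and from 30.7 ± 3.43 to 13.7 ± 1.70 TPM. Haus8 rose from 23.8 ± 2.29 to 39.8 ± 4.26 TPM. Haus3, not a member, had 3.35, 3.77, 7.45 and 4.98 against 31.6, 32.4, 22.2 and 17.7 TPM and rose (2.20, SE 0.23). A long noncoding RNA whose terms are those of the spindle, ENSRNOG00000089875, also rose, from 0.400 ± 0.570 to 4.77 ± 1.10 TPM. The direction of these 5 genes was the same after median-of-ratios and after quantile scaling.

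Genes of microtubule nucleation and the centrosome were mixed. Tubgcp2 (-0.85), Tubgcp4 (-1.36), Tubgcp5 (-0.89) and Mzt2b (-1.22) encode parts of the γ-tubulin ring complex. All of these 4 fell, beside 51.1% of all genes tested, but Tubgcp4, Tubgcp5 and Mzt2b were picked after their values were seen. Cdk5rap2 (-0.48) and Cep72 (-0.50), which organise material around the centrioles, fell as deposited and lost the call after median-of-ratios scaling (-0.05 and -0.10). Cep89 (-0.95) and Cep128 (-1.10) fell, Cep95 rose (1.20), and Cep295 did not pass (-0.18). Cep152, a centriole duplication gene outside the members, rose from 2.45 ± 0.345 to 8.27 ± 1.25 TPM. Tubulins also went both ways: Tubb3 rose from 18.8 ± 1.79 to 49.8 ± 1.93 TPM, and Tuba1c, not a member, fell from 391 ± 33.5 to 86.9 ± 12.2 TPM.

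Among the roles of the core list, cytokinesis genes showed the least separation of the groups. In this role, which includes septins, the groups did not overlap in 3 of 8 tested genes (37.5%). The share was 91.4% of all genes tested and 80.2% of the core list. Of the 8 genes, 4 fell (50%), beside 51.1% of all genes tested, and 4 did not pass. Septin11, not a member, was 1 of the 3 and fell (-1.55, SE 0.10). Racgap1, a subunit of the centralspindlin complex, had 46.0, 43.4, 56.6 and 46.0 against 25.2, 24.8, 20.3 and 27.2 TPM and fell (-0.95, SE 0.11). Its partner in that complex, Kif23, had 15.1, 17.7, 27.2 and 17.1 against 21.8, 21.1, 15.9 and 15.8 TPM and did not pass (-0.03, SE 0.17). The 2 subunits of this complex thus differed in outcome, with no overlap of the groups in Racgap1 and full overlap in Kif23. Ect2, an exchange factor that Racgap1 recruits to the division plane, fell from 14.9 ± 5.48 to 8.20 ± 1.94 TPM and Cit, a kinase of the midbody, from 6.39 ± 0.12 to 3.71 ± 0.928 TPM, and neither passed after median-of-ratios scaling. Anln, a scaffold of the contractile ring, had 53.6, 57.1, 93.5 and 62.5 against 67.5, 70.6, 42.4 and 57.4 TPM. Prc1, which bundles the central spindle, had 45.8, 52.5, 79.3 and 52.2 against 52.8, 54.8, 44.0 and 49.4 TPM. Cep55, which starts abscission, had 9.49, 10.6, 20.1 and 11.2 against 13.5, 13.6, 10.7 and 11.4 TPM. In these 3 genes the highest value was SOD1-WT replicate 3, and the other SOD1-WT values lay within or below the SOD1-K123R range.

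The 13 members that did not pass were Anln, Aspm, Bub1, Cenpq, Cep295, Cep55, Kif20b, Kif23, Knl1, LOC100362709, Ncapg, Prc1 and Ttk. In 12 of the 13 the highest SOD1-WT value was in replicate 3. Without it, the differences of Prc1 and Anln were 0.00 and 0.02 and those of Kif23, Cep55, Aspm and Kif20b were 0.15, 0.22, 0.17 and 0.39. After median-of-ratios scaling the sign of 6 turned and they passed as higher in SOD1-K123R: Anln 0.32, Aspm 0.37, Cep55 0.44, Kif23 0.43, LOC100362709 0.43 and Prc1 0.31. Kif20b, a kinesin of the midbody, passed with them at 0.58. Under equal summed TPM over the genes of the table, Anln, LOC100362709 and Prc1 instead passed as lower, as did Bub1, Cenpq (-0.46) and Ttk. No direction is given for the 13 members. Their promoters resembled those of the falling core genes, with the homology region in 10 of 12 windows.

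**Figure D4:**
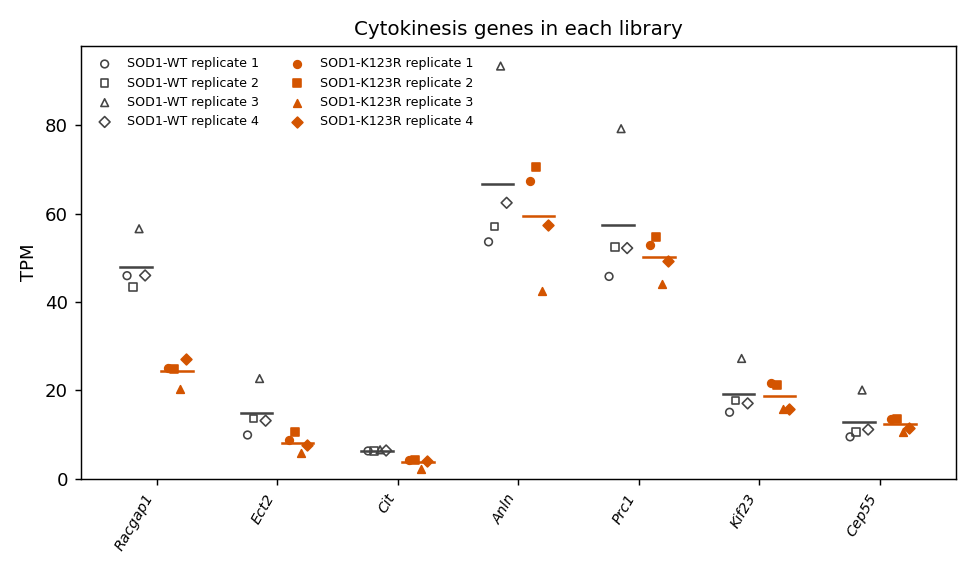
TPM (y axis, linear from 0) of 7 members with a cytokinesis role or acting in abscission (x axis), with 1 point for each library and a bar at each group's mean. The groups lie apart in Racgap1 and Cit, they overlap in the others, and SOD1-WT replicate 3 (open triangles) is the highest SOD1-WT library in every gene shown.

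Transcription factors upstream of this programme were among the members. E2f1, which activates genes of S phase entry, had 27.1, 21.7, 22.1 and 25.2 against 4.05, 3.74, 3.56 and 4.82 TPM (-2.31, SE 0.12, limma adjusted p = 3.53e-09). Its replicate 3 was not high, unlike in the mitotic genes. Foxm1, the forkhead activator of late cell cycle genes, had 10.1, 9.05, 11.9 and 11 against 2.94, 2.03, 2.49 and 2.27 TPM (-1.75, SE 0.13). Mybl2, which encodes B-MYB, fell from 23.6 ± 2.27 to 9.95 ± 1.13 TPM. Mybl1, its relative A-MYB, had 14.0, 21.4, 30.8 and 20.5 against 207, 213, 132 and 114 TPM (2.88, SE 0.23). The paralogs therefore differed in direction, and Mybl1 reached 166 ± 50.6 TPM, far above Mybl2 in the same libraries. The repressor E2f6 fell from 37.8 ± 2.85 to 11.4 ± 0.618 TPM, and the pocket protein gene Rbl2 from 6.26 ± 0.840 to 3.51 ± 0.767 TPM. Lin37, a MuvB subunit and not a member, had 40.7 ± 4.45 and 52.6 ± 6.00 TPM and rose (0.36), but did not pass with quantile normalization or equal summed TPM.

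Cyclins of G1 went both ways, with 2 of the 5 tested genes of that role on the core list rising and 3 falling. These shares, 40% and 60%, were near the 44.6% and 51.1% of all genes tested. Ccnd1, which encodes cyclin D1, had 433, 416, 445 and 344 against 819, 894, 796 and 914 TPM (1.07, SE 0.10). Ccng2, a cyclin associated with withdrawal from the cycle, had 7.70, 8.47, 8.76 and 6.61 against 63.7, 54.1, 57.6 and 53.8 TPM (2.72, SE 0.11, limma adjusted p = 4.55e-10). All SOD1-K123R libraries were higher by a wide margin in both genes, by 2.09-fold and 7.26-fold in mean TPM. The E-type cyclin genes Ccne1 and Ccne2, not members, fell from 16.4 ± 1.44 to 4.05 ± 0.694 TPM and from 10.3 ± 2.15 to 4.57 ± 0.401 TPM. Cdk14, a kinase of the cell membrane that binds cyclin Y, fell from 33.2 ± 4.88 to 13.1 ± 1.79 TPM. Cks2, a small CDK-binding protein outside the members, rose from 124 ± 26.8 to 322 ± 22.2 TPM and was the only gene of 10 tested in the cyclin and mitotic kinase role of the core list that rose.

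The largest rises of all members were in genes whose main roles lie outside the spindle. Txnip, which encodes the thioredoxin-interacting protein, a glucose-responsive arrestin, had 11, 9.35, 12.6 and 8.59 against 120, 85.7, 118 and 79.9 TPM (3.15, SE 0.15, limma adjusted p = 2.33e-09). Gem, a GTPase that restrains calcium channels, had 0.910, 1.20, 0.950 and 1.82 against 12.0, 15.2, 10.6 and 7.31 TPM (2.44, SE 0.20). Groups were wide apart in both genes. Mrnip, a partner of the MRN complex of DNA repair, rose from 5.69 ± 0.712 to 39.1 ± 3.74 TPM, while Mre11, which encodes a subunit of that complex, fell from 10.1 ± 0.914 to 4.93 ± 0.564 TPM. Phf13, a chromatin reader, rose from 10.3 ± 1.11 to 48.0 ± 1.77 TPM and Dnmt3a, a DNA methyltransferase, from 1.51 ± 0.200 to 9.86 ± 1.08 TPM.

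Among the largest falls, Iqgap3, a scaffold of cell proliferation, went from 21.8 ± 3.49 to 3.96 ± 0.792 TPM and Sfn, which encodes the 14-3-3 sigma protein, from 12.9 ± 1.28 to 2.94 ± 0.207 TPM. The remaining 6 of the 8 largest falls were Cenpa, E2f1, Spc25, Ranbp1, Ncaph and Ska2.

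**Figure D5:**
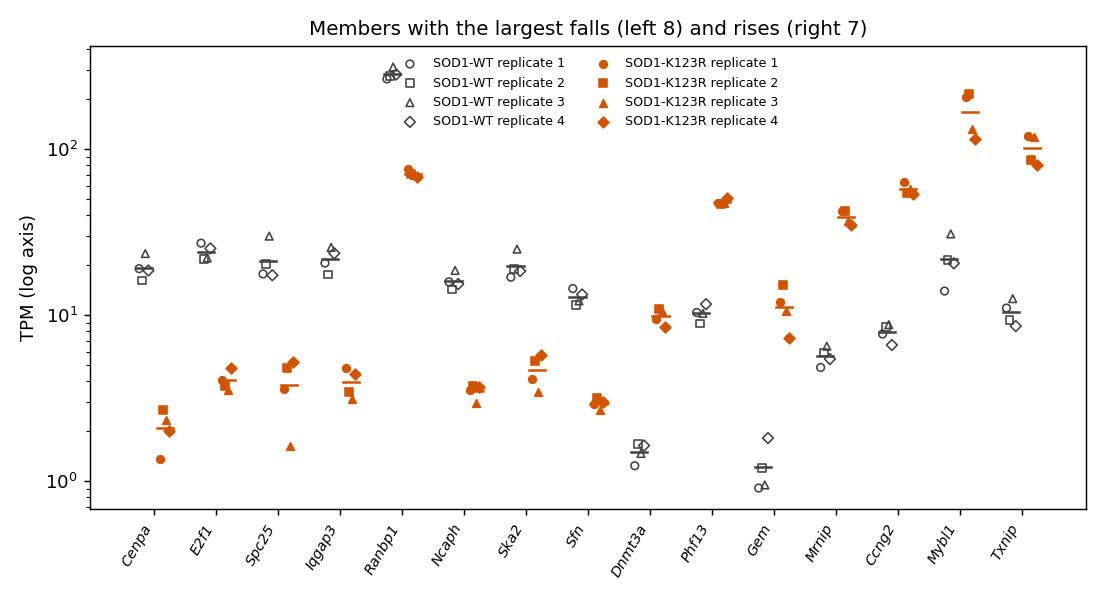
TPM (y axis, log scale) of the 8 members with the largest falls and 7 of the 8 with the largest rises (x axis, from the largest fall on the left to the largest rise on the right), with 1 point for each library and a bar at each group's mean. The genes were chosen for the size of their difference, and the extremes are Cenpa, at 19.3 against 2.10 TPM, and Txnip, at 10.4 against 101 TPM.

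Members known for regulation or for other cellular tasks made up much of the rest. Ctnnb1, which encodes β-catenin, fell from 206 ± 2.84 to 61.5 ± 6.49 TPM and Adamts1, a secreted protease of the extracellular matrix, from 635 ± 66.7 to 189 ± 36.9 TPM. Nudc, a chaperone of the dynein pathway, fell from 205 ± 5.69 to 76.0 ± 2.48 TPM and Hnrnpu, a nuclear scaffold protein, from 207 ± 22.1 to 84.4 ± 14.2 TPM. Reep3 and Reep4, which clear membrane from mitotic chromatin, both fell, from 31.9 ± 7.43 to 8.41 ± 1.45 TPM and from 37.0 ± 1.92 to 11.3 ± 1.02 TPM. The nucleoporin genes Nup85 and Nup214 fell as well (-1.38 and -1.18). Rises were found in the antiproliferative gene Btg1, from 184 ± 5.56 to 337 ± 22.5 TPM, and in the kinase genes Pim3, from 30.9 ± 5.25 to 90.4 ± 4.82 TPM, and Sik1, from 6.86 ± 1.27 to 25.8 ± 3.71 TPM. Cdc14a, a phosphatase, rose from 0.892 ± 0.189 to 4.34 ± 0.799 TPM and Ppp2r2a, a regulatory subunit of PP2A, from 50.9 ± 5.89 to 114 ± 7.73 TPM. The deubiquitinase genes Cyld and Usp22 rose from 20.6 ± 3.45 to 40.0 ± 3.96 TPM and from 39.2 ± 2.49 to 68.1 ± 3.80 TPM. Genes of growth factors and of a Notch ligand were low in both groups, with Fgf1 falling (4.07 ± 0.527 to 1.27 ± 0.149 TPM) and Dll1 and Pdgfb rising (0.477 ± 0.176 to 2.85 ± 0.481 and 0.935 ± 0.221 to 2.50 ± 0.550 TPM).

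Some of the smaller rises depended on scaling or on single libraries. Bid, a mediator of apoptosis, rose from 41.8 ± 2.62 to 50.5 ± 2.10 TPM (0.27, SE 0.08), but its sign turned under equal summed TPM (-0.041, limma adjusted p = 0.675). Pelo, a ribosome rescue factor (0.31), Sirt2, a deacetylase (0.46), and Dapk3, a kinase of myosin (0.50), did not pass under equal summed TPM. Sfrp2, a secreted inhibitor of WNT signalling, rose by 0.43 (limma adjusted p = 0.0157) and did not pass without SOD1-WT replicate 4 (0.30, limma adjusted p = 0.0512), without SOD1-K123R replicate 1 (0.33, limma adjusted p = 0.0570) or under equal summed TPM. Members with near copies, Tpt1l2, Tpt1l3, Nek2l1, Rgccl1 and LOC100362709 beside Ccnb2-ps2, are uncertain wherever reads were split between copies.

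Core genes outside the members followed the same course. Of 28 tested, 22 fell, 4 rose (Lin37, Cks2, Cep152 and Haus3) and 2 did not pass (Hmmr and Esco2). The share that fell was 78.6%, beside 51.1% of all genes tested. Mki67, the proliferation marker, had 11.8, 18.1, 28.6 and 20.1 against 12.9, 12.3, 7.38 and 6.49 TPM (-0.93, SE 0.25) and Top2a, the topoisomerase of chromosome separation, 21.7, 28.6, 52.0 and 30.2 against 23.1, 23.9, 13.6 and 18.1 TPM (-0.69, SE 0.23). In both genes SOD1-WT replicate 1 lay within the SOD1-K123R range, and Top2a did not pass without SOD1-K123R replicate 3 (limma adjusted p = 0.0545) or after median-of-ratios scaling. Kif2c, a microtubule depolymerase, fell from 18.6 ± 2.61 to 5.16 ± 0.541 TPM, Pbk, a mitotic kinase, from 19.8 ± 6.05 to 4.92 ± 0.114 TPM, and Septin11, a septin, from 229 ± 23.6 to 77.3 ± 8.63 TPM.

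Markers of cell types were read beside these results. Of 14 nucleus pulposus markers, 6 were in the table and 5 were tested; Sox9, Cd24 and Car12 rose, and Acan (1.55 ± 0.419 to 0.645 ± 0.0998 TPM) and Cdh2 fell. Col2a1 was listed at 0 in all SOD1-WT libraries, and the labelled cell type thus rests on few and low markers here. The summed level of 3 of 4 pericyte and smooth muscle markers was 929 to 2017 TPM in SOD1-WT and 391 to 503 TPM in SOD1-K123R, mostly Acta2, whose partner Myh11 fell and Mcam rose. Of 4 leukocyte markers only Cd68 was in the table, and it rose from 6.89 ± 1.05 to 26.0 ± 3.56 TPM. Scx and Thbs4, 2 of 4 markers of annulus and tendon, summed to 34.6 to 55.2 TPM in SOD1-WT and 17 to 21.7 TPM in SOD1-K123R. Runx2 and Ibsp, 2 of 3 bone markers, summed to 11.7 to 15.9 and 12.1 to 17.1 TPM, Fabp4, 1 of 3 adipocyte markers, stood at 6.34 to 14.2 and 10.8 to 16.4 TPM, and the endothelial gene Pecam1, 1 of 4, did not exceed 0.460 TPM. None of 3 erythroid markers was analysed here. The part of these shifts in the results was not tested. Library identifiers in the labels form an unbroken run for each group, so handling and group cannot be told apart.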

How the data were processed

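RNA-seq of 8 libraries was analysed from the table of TPM that the authors deposited. Per the file headers it holds gene identifiers, symbols, biotypes and GO terms, and its name points to RSEM. The submitters' processing notes list DESeq2 without saying what for. Aligner, build and counting rules are stated in none of the sources read. Groups follow the titles and genotype labels, and both groups carry the treatment label lactate.

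Members were found by their GO terms. Of 6 members without a symbol, 4 were named through the NCBI gene number in the table and RefSeq genes of GRCr8, Cenpa and Mrnip among them. The 2890 genes that averaged 1 TPM or more were fitted on log2(TPM + 1) with limma 3.58.1 in R 4.3.3 (lmFit, then eBayes with trend), two-sided, with Benjamini-Hochberg adjustment and a threshold of 0.05; the fit was tested on simulated data. Members, the core list, the motifs and the marker lists were chosen with earlier results of these data known, and no set test was run. Named were the 8 members with the largest difference in each direction among those that passed with at least 5 TPM in the higher group, up to 3 of each role by adjusted p, up to 10 that did not pass, a list of well-known cell cycle genes, and other genes picked after their values were seen. The values of 1 gene so named are not given. Promoters are RefSeq windows. Alternatives were a pseudocount of 0.1, no filter, a filter at 5 TPM, median-of-ratios, quantile and equal-sum scaling, no trend, a replicate block, other membership rules and leaving out each library. All scalings used the genes of the table alone.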

Additional observations from a re-analysis of the deposited data

Results flagged for a closer look

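Among 340 groups of 4 libraries of named genes, 16 held a value that stood far from the other 3 by Dixon's test at its 95% critical value, and chance alone gives about 1 in 20 groups. In SOD1-WT replicate 3 these were Ncapg at 12.7 TPM (others 4.26 to 5.70), Cep55 at 20.1 TPM (9.49 to 11.2), Cenpu at 13.6 TPM (8.60 to 9.29) and Ube2c at 112 TPM (90.2 to 92.4). All of these 4 are core mitotic genes that were high in that library.

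In SOD1-WT replicate 1, Haus4 stood high at 35.9 TPM (28.7 to 29.2) and Cdc14a low at 0.61 TPM (0.96 to 1.00). SOD1-K123R replicate 3 was low in Cit at 2.32 TPM (4.12 to 4.23), Nuf2 at 9.19 TPM (11.8 to 12.1), Nup214 at 4.04 TPM (6.28 to 6.67) and Ss18l1 at 5.55 TPM (7.91 to 8.13), and high in Cenpp at 1.52 TPM (0.72 to 0.77). SOD1-K123R replicate 2 was low in Bbln at 375 TPM (418 to 427) and high in Kat2b at 6.87 TPM (4.35 to 4.76). SOD1-K123R replicate 4 was low in Sik1 at 20.3 TPM (27.3 to 27.9) and Dll1 at 2.13 TPM (3.05 to 3.14), and high in Rhou at 46.5 TPM (40.4 to 41.4). Values of the groups stay apart in 14 of these genes, the exceptions being Ncapg and Cep55.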

How the results depend on the processing

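The median difference of the members stayed below 0 in every setting tried: -0.79 with a pseudocount of 0.1, -0.53 with no filter, -0.25 with median-of-ratios scaling, -0.40 with quantile normalization and -0.91 with equal summed TPM. Leaving out each library gave -0.69 to -0.54, the latter without SOD1-WT replicate 3. The core list had 15 genes rising with median-of-ratios scaling against 9, and 897 of all genes fell at a mean of at least 5 TPM against 1476, where fewer genes were tested. Leaving out each library gave 64 to 65 members that rose, 104 to 109 that fell, 71 to 76 falling core genes and 34 to 37 falling genes of the kinetochore class. Of 2702 results for single genes under alternatives, 2645 stayed on the same side of the threshold. Their sign could still differ where neither the main nor the alternative setting passed, as for Bub1 and Ncapg above. In 7 results the sign turned and the main or the alternative setting passed. These were Anln 0.32, Aspm 0.37, Cep55 0.44, Kif23 0.43, LOC100362709 0.43 and Prc1 0.31 with median-of-ratios scaling, and Bid -0.041 with equal summed TPM; the cause was not tested. With the replicate number as a block, 65 members rose and 106 fell (core list 9 and 73, kinetochore class 6 and 35), with the same median of -0.67, and 1 named gene, Smc2, lost its call. Samples of the same number deviated from their group means with correlations of -0.35, 0.016, -0.20 and 0.054 over genes, so no pairing by number was seen. Whether libraries of equal number shared a culture or batch cannot be read from these values. TPM give no depth, so no counting error could be set for genes of low level.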
